A study of Mus musculus with 18 samples.

Results

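Taar8a, Taar8b, Taar8c and Taar9 are 4 of the 15 Taar genes listed among the 23359 gene symbols of an RNA-seq table of sorted cells from the mouse main olfactory epithelium (MOE), and they were taken by symbol. Taar genes encode the trace amine-associated receptors (TAARs), a small family of G protein-coupled receptors that detect volatile amines. A mature olfactory sensory neuron (OSN) usually expresses a single receptor gene, in most OSNs an odorant receptor (OR) gene and in a small minority a Taar gene. Taar8 and Taar9 belong to the subfamily of TAARs that mostly recognise tertiary amines, and they lie together at one end of the Taar gene cluster.

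The study compared reporter-positive with reporter-negative cells, sorted by fluorescence-activated cell sorting from knock-in mice in which Cre is made from the Taar5 or the Taar6 transcript and switches on a fluorescent reporter. In the Taar5 line (genotype TAAR5-Cre&L10-GFP, postnatal day 11 to 14), 7 reporter-positive libraries (Taar5+) and 9 reporter-negative libraries (control) were made. In the Taar6 line (genotype TAAR6-Cre&ZsGreen, postnatal day 16 to 17), there was 1 library of each kind (Taar6+ and its control). All mice carried a Cre knock-in, the controls included, and the strain is labelled C57BL/6. The paper instead gives a mixed background and, in its reporting summary, older mice. None of the 4 members was the gene that drove Cre. The labels tie no library to an animal, so p-values measure the spread between libraries.

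The members lie on chromosome 10 (GRCm38, GENCODE M21) within 33035 bases, with no other Taar gene between them. Taar8a (ENSMUSG00000096442.1) is at chr10:24076500-24077534 on the plus strand. Taar8b (ENSMUSG00000100186.1) is at chr10:24091260-24092294, Taar8c (ENSMUSG00000100004.1) at chr10:24100878-24101912 and Taar9 (ENSMUSG00000037424.6) at chr10:24108488-24109534, all 3 on the minus strand. Each is annotated as 1 exon that runs from start codon to stop codon without untranslated regions. The gap from Taar7f to Taar8a is 25913 bases, the longest between neighbours in the cluster, and those between the members are 13725, 8583 and 6575 bases.

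The Taar8 copies are near-identical, which limits how reads can be assigned to them. Over 1035 aligned bases without a gap, Taar8a and Taar8c differed at 20, Taar8b and Taar8c at 26 and Taar8a and Taar8b at 35. The 3 copies together varied at 40 positions, or 3.86% of the transcript. The base of Taar8b was the odd one at 20 of these, that of Taar8a at 14 and that of Taar8c at 5, and all copies differed at 1. The window of 90 bases with the most differences, positions 934 to 1023 from the A of the start codon, held 13 of them. It is shown because it carries much of what tells the copies apart. Capitals mark bases that are not the same in all 3 copies, in the direction of transcription, from chr10:24077433-24077522 for Taar8a, chr10:24091272-24091361 for Taar8b and chr10:24100890-24100979 for Taar8c:
Taar8a: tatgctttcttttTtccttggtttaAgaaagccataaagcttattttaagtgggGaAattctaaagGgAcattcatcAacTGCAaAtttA
Taar8b: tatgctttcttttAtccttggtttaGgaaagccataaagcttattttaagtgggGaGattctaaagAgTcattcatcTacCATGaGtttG
Taar8c: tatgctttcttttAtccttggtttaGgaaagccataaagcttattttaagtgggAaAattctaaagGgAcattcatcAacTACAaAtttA

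**Figure D1:**
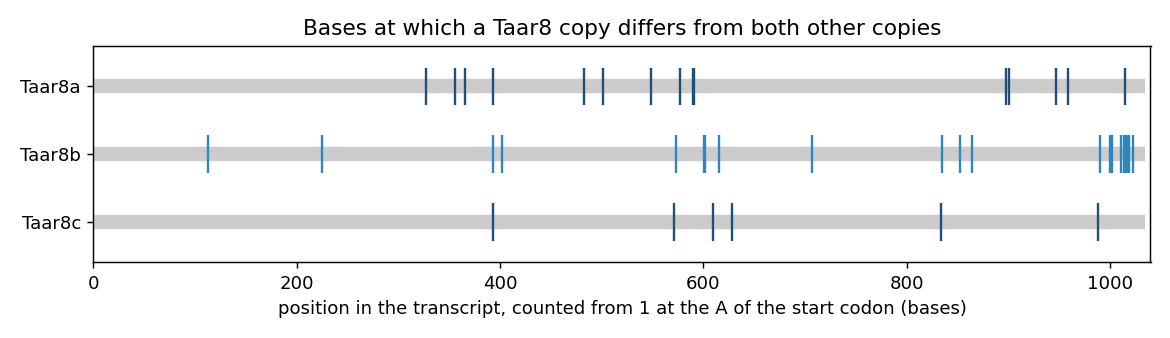
Positions along the 1035-base transcripts (x axis, in bases from the start codon) at which a Taar8 copy (a bar for each) differs from both other copies (vertical lines). The base at which all copies differ is drawn on all 3 bars. Only 3 of the 40 variable positions fall in the first 345 bases, and 20 fall in the last 345.

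Of all 50-base words of Taar8c, 72.5% also occur in another transcript of the annotation on either strand, against 56.4% of those of Taar8b and 50.9% of those of Taar8a. Of 100-base words, 52.6% of those of Taar8c, 22.9% of those of Taar8b and 35.7% of those of Taar8a occur in another transcript. Taar9 had 0% of words of either length in common with another gene. The longest run without a difference between the copies is 126 bases, from position 708 to 833. How reads that match several genes were counted is not stated, so the values of single Taar8 copies are uncertain, and the summed TPM of the copies is given beside them. A few Taar8 words of 50 bases also occur in other Taar genes (Taar6 for Taar8a, Taar7 copies for Taar8b and Taar8c).

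Taar9 is distant in sequence from the copies beside it. It was identical to Taar8c at 68.9% of aligned columns, to Taar8a at 67.9% and to Taar8b at 67.6%. Among the other Taar genes, Taar6 was nearest to each member, with 77.2% to 77.9% for the Taar8 copies and 68.6% for Taar9, which was at 68.2% to Taar7d, the next. The first 60 bases of the coding sequence show this. All 3 Taar8 copies have the same 60 bases there, given for Taar8b at chr10:24092235-24092294. Taar9 is given at chr10:24109475-24109534. Its capitals mark 14 bases that differ from Taar8b or stand opposite a gap in a global alignment. The capitals CAG stand opposite a gap, so after them the lines are not in step:
Taar8b: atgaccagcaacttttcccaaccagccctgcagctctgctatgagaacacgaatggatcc
Taar9: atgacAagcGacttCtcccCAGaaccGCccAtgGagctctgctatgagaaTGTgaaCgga

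Levels are in TPM, transcripts per 1000000 after correction for gene length, and those of different genes were compared on that basis. The gene lengths used are not stated, so comparisons between genes depend on them, and sequencing depth is unknown. In control replicate 2, the values of all 4 members, as of every other Taar gene above 0, equal those of replicate 1, while 0 other genes above 0 do. They were left out, which leaves 8 controls for Taar genes. Every library held RNA of mature OSNs, with 17526 to 57712 TPM over 7 markers including Omp. The number of genes above 0 was 9784 to 17653 in Taar5+ libraries, 11259 to 16888 in the controls used for Taar genes and 5891 in control replicate 2. Taar5+ replicate 5 stood apart, with 12070 TPM of the 3 sustentacular markers, 20209 TPM of the 4 gland markers and 5525 TPM of OR genes. The other Taar5+ libraries held at most 3136, 3410 and 1999 TPM of these. By median, the mature OSN markers Omp (15909 against 12865 TPM), Gng13 and Ric8b were higher in Taar5+ libraries than in controls. So was the gland marker Muc5b, while the mature OSN markers Stoml3 (5531 against 13655 TPM), Cnga2, Cnga4 and Cngb1 were lower. The median summed level of each of the 9 marker lists, taken as a whole, was higher in controls than in Taar5+ libraries. In proportion, the gap was widest for the 3 microvillar markers (121.8 against 5.73 TPM), the 3 horizontal basal markers (98.0 against 5.01 TPM) and the 4 progenitor markers (51.4 against 3.04 TPM), and the part of these cells in the results was not tested. In sorted bulk samples, fewer cells that express a gene and less RNA per cell cannot be told apart.

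All 4 members rose in Taar5+ libraries. In log2(TPM + 1), the difference from controls was 3.997 ± 0.61 (SE, n = 7 and 8) for Taar8a, 4.84 ± 0.86 for Taar8b, 4.57 ± 0.69 for Taar8c and 4.75 ± 0.74 for Taar9. The Benjamini-Hochberg adjusted p of limma's test was 0.00400, 0.0185, 0.00400 and 0.00438, respectively. Replicate numbers were not taken as pairing. With them as a block, the limma adjusted p was 0.117, 0.127, 0.122 and 0.00518 in the same order, so that Taar9 alone kept its call. All 4 had passed the filter on low values, 1 TPM in 7 or more libraries, which the 7 Taar5+ libraries met by themselves. Over all 12502 genes tested, 0.168% were called at an adjusted p under 0.05 in either direction, and 0.144% were called higher. These differences understate the change of genes with low values, because 1 TPM was added before the logarithm. The summed Taar8 copies differed by 5.16 ± 0.85 (limma adjusted p = 0.0106). That call was lost with a pseudocount of 0.1 (6.14, adjusted p = 0.1003) and with the replicate block (4.53, adjusted p = 0.128). Dividing shared reads among the copies would leave their sum unchanged. Dropping such reads, or counting them for other Taar genes, would not.

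Taar9, the member with a unique sequence, was at 114, 36.1, 310, 266, 58.2, 93.0 and 302 TPM in Taar5+ replicates 1 to 7. In controls it was at 0.816, 6.65, 20.9, 5.31, 7.24 and 16.6 TPM in replicates 1, 3, 4, 6, 7 and 9, and it was listed at 0 in replicates 5 and 8. The lowest Taar5+ library, replicate 2, was above the highest control, replicate 4, so the groups did not overlap. That held for 1 of the 4 members, against 0.104% of all genes tested with every Taar5+ library above every control. The mean over Taar5+ libraries was 168 ± 120 TPM (SD, n = 7). With a pseudocount of 0.1 in place of 1, the difference of Taar9 in log2 was 5.78 and its limma adjusted p 0.0788, over the threshold.

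Taar8b, the copy with the most bases of its own, had the highest level of the 3 copies. It was at 143, 77.1, 233, 315, 34.2, 283 and 185 TPM in Taar5+ replicates 1 to 7. In controls it was at 7.04, 5.40, 86.4, 5.65 and 15.7 TPM in replicates 1, 3, 4, 5 and 6, and listed at 0 in replicates 7, 8 and 9. Control replicate 4 was above Taar5+ replicates 2 and 5, and the other 7 controls were below every Taar5+ library. The call of Taar8b was the least firm of the 4, since the limma adjusted p was 0.0625 without Taar5+ replicate 3, 0.0614 without replicate 4, 0.0645 without replicate 6 and 0.0570 without replicate 7, with differences of 4.66 to 4.79. It was 0.156 with a pseudocount of 0.1 in place of 1 and 0.0680 without the filter on low values.

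Taar8c, the copy that shares the most sequence with the others, was at 34.9, 53.3, 92.8, 180, 7.35, 38.3 and 105 TPM in Taar5+ replicates 1 to 7. Its controls were at 2.66, 0.619, 10.9, 0.996, 2.54 and 0.238 TPM in replicates 1, 3, 4, 5, 6 and 9, and it was listed at 0 in replicates 7 and 8. The groups overlapped only through control replicate 4, which was above Taar5+ replicate 5. With a highest value 24.5 times the lowest, Taar8c had the widest range of the members over Taar5+ libraries, against 7.56 times for Taar8a, 8.59 for Taar9 and 9.22 for Taar8b.

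Taar8a, the copy on the opposite strand, had the lowest level. It was at 26.5, 35.1, 36.6, 54.7, 7.24, 22.1 and 45.9 TPM in Taar5+ replicates 1 to 7. In controls it was at 2.90, 9.36, 0.217, 0.287 and 1.04 TPM in replicates 1, 4, 5, 6 and 9, and listed at 0 in replicates 3, 7 and 8. Here too, control replicate 4 was above Taar5+ replicate 5 and the other 7 controls were below every Taar5+ library. Taar5+ replicate 5 was the lowest library for each Taar8 copy. It also had the lowest summed Taar TPM of its group, 1517 TPM against 4542 to 7804 TPM in the others.

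**Figure D2:**
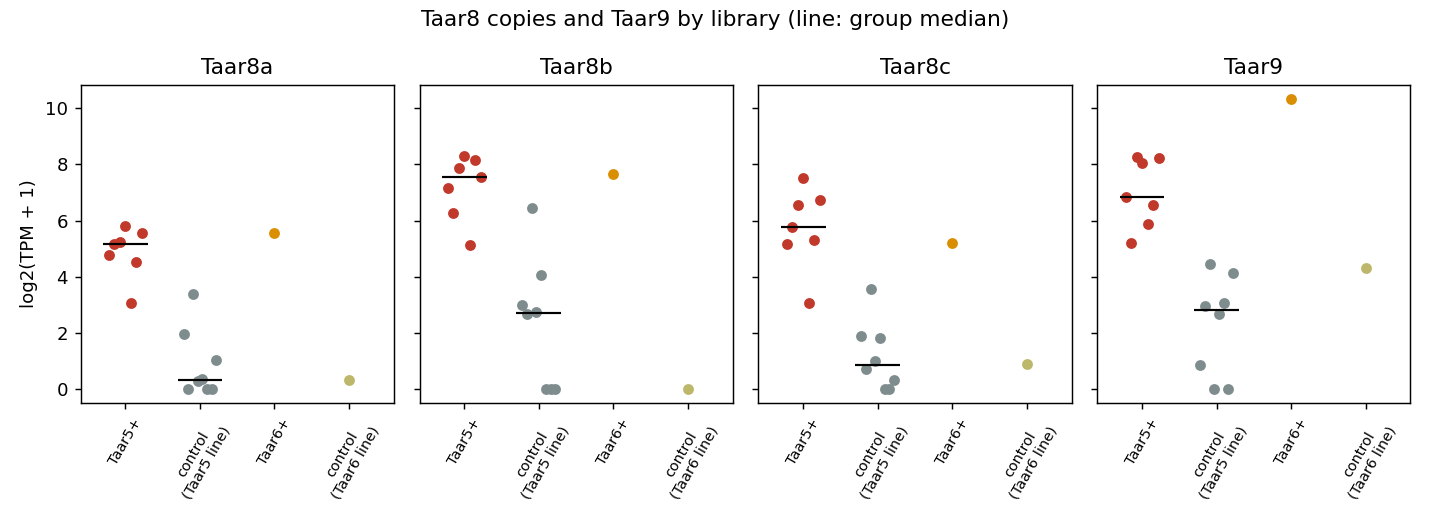
Level of each member in log2(TPM + 1) (y axis) in every library used, by group (points; line, group median where a group has several libraries). Taar9 is the member whose Taar5+ and control libraries do not overlap, and its level in the Taar6+ library, 1277 TPM, is above every Taar5+ library.

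The calls of the members were also made without the libraries that stood apart. With control replicate 2 left out for all genes and Taar5+ replicate 5 left out, an alternative chosen after seeing the data, the differences were 4.30 for Taar8a, 5.19 for Taar8b, 5.01 for Taar8c and 4.94 for Taar9. The limma adjusted p was 0.000340, 0.00176, 0.000125 and 0.000970. The number of genes called in either direction rose from 21 to 337 in that fit.

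The members were not alone in the cluster in being higher. Of the 11 other Taar genes, 10 passed the filter on low values, and 6 of these were called higher and 0 lower by limma, at an adjusted p under 0.05. The largest difference was that of Taar4 (9.01 ± 0.59 in log2, limma adjusted p = 1.03e-07) and the smallest that of Taar7b (1.75 ± 0.54, adjusted p = 0.300). Taar1, a receptor known mainly from the brain, was listed at 0 in every library and was not tested. The median difference was 4.66 over the 4 members, 5.22 over the 10 other Taar genes and 0.02 over all genes tested. Every Taar5+ library was above every control for 6 of the 10 other Taar genes tested, against 0.104% of all genes tested. The 6 signalling genes of OSNs were Gnal (a G protein subunit), Adcy3 (adenylyl cyclase), Cnga2 and Ano2 (ion channels), and Rtp1 and Rtp2 (which carry receptors to the membrane). None of them was called (0 of 6, limma), against 0.168% of all genes tested. Their differences ran from 0.01 for Cnga2 to 0.38 for Adcy3, with SE from 0.22 for Rtp1 to 0.43 for Adcy3. An unadjusted limma p under 0.05 was found for 0 of the 6, and for 881 of all 12502 genes tested. Most genes tested were thus not called either, and these counts do not set the 6 genes apart.

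**Figure D3:**
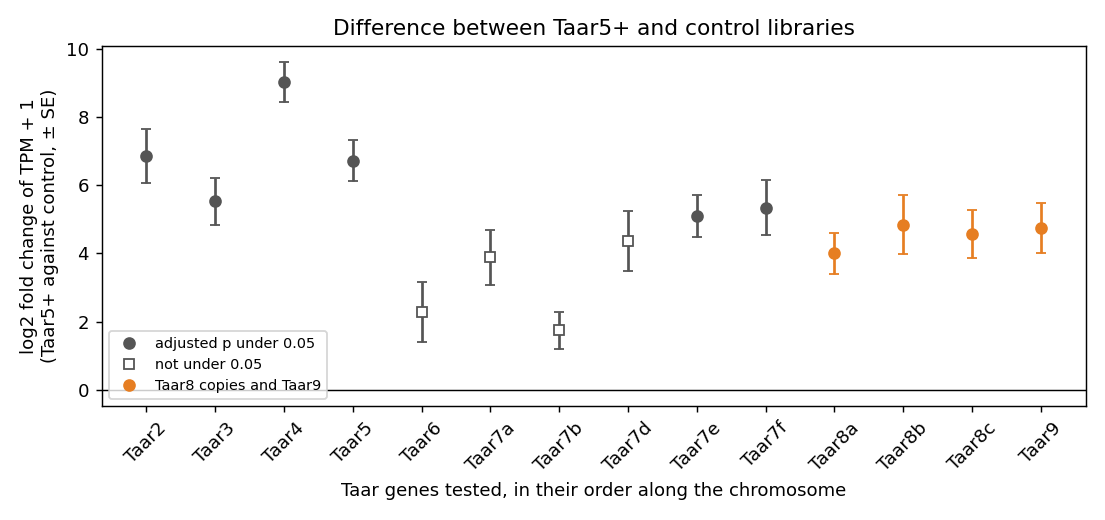
Difference in log2(TPM + 1) between Taar5+ and control libraries (y axis, ± SE) for the Taar genes tested, in their order along chromosome 10 (x axis). Filled circles passed an adjusted p of 0.05 and open squares did not. The 4 members, at the right, lie between 3.997 and 4.84.

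By level, the members were in the lower part of the family in Taar5+ libraries. Among 15 Taar genes ordered by mean TPM, Taar8b was at rank 8 (182 ± 104, SD, n = 7), Taar9 at rank 9 (168 ± 120), Taar8c at rank 12 (73.2 ± 58.2) and Taar8a at rank 14 (32.6 ± 15.7). Taar4, at rank 1, had a mean of 2058 TPM. Taar5, the gene that drives Cre in this line, had a mean of 209 ± 97.2 TPM, at rank 7.

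The order of the members was compared within libraries, in log2(TPM + 1), with exact two-sided sign-flip permutation tests of 6 pairs. In the 7 Taar5+ libraries, 5 of the 6 pairs differed. Taar8b was above Taar8a in 7 of 7 libraries by 2.34 ± 0.76 (SD of the difference), above Taar8c in 7 of 7 by 1.48 ± 0.85, and Taar8c was above Taar8a in 7 of 7 by 0.85 ± 0.58. For each of these the exact permutation p was 0.0156, the smallest that 7 libraries allow, and the adjusted p was 0.0234. Taar9 was above Taar8a in 7 of 7 libraries by 2.14 ± 1.01 (exact permutation p = 0.0156, adjusted p = 0.0234) and above Taar8c in 6 of 7 by 1.29 ± 1.05 (exact permutation p = 0.0312, adjusted p = 0.0375). That last call was lost with a pseudocount of 0.1 (adjusted p = 0.0562) and without any of Taar5+ replicates 1 and 3 to 7 (adjusted p = 0.075 each, exact permutation tests), with Taar9 higher on average in each case. Taar9 was below Taar8c in replicate 2 only (36.1 against 53.3 TPM), and 6 libraries that include it cannot give an exact permutation p under 0.0625. The loss on leaving out 1 library was thus fixed by the smaller number of libraries. Taar8b and Taar9 were neighbours in the order whose difference was within the spread, with Taar8b higher in 4 of 7 libraries by 0.20 ± 0.90 (exact permutation p = 0.609). A bias in how shared reads were assigned to the Taar8 copies would recur in every library, so these p-values do not measure it. Its part in the order was not tested. In the 8 controls, 0 of the 6 pairs differed by the same test at an adjusted or an unadjusted p under 0.05, and the smallest exact permutation p was 0.0625. All Taar8 copies were listed at 0 in control replicates 7 and 8, and Taar8b also in replicate 9. Taar8b was above Taar8a in 5 of the 8 controls, and above Taar8c in 5. With so many values at 0, the test had little room to find a difference between copies. It does not show that their order was absent in controls.

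Within a library, the members made up a share of the summed Taar TPM that was not distinguishable between Taar5+ and control. In Taar5+ replicates 1 to 7 their share was 7.01%, 4.03%, 11.6%, 13.2%, 7.05%, 6.61% and 8.18%, with a mean of 8.24% ± 3.14 (SD). In controls it was 11.6%, 8.33%, 34.8%, 4.05%, 10.7%, 1.80%, 0% and 10.8% in replicates 1 and 3 to 9. The difference in means, Taar5+ minus control, was -2.03 percentage points (exact two-sided permutation p = 0.786, adjusted p = 0.919 over 5 shares, n = 7 and 8). That direction rests on control replicate 4, without which the Taar5+ mean was 1.48 points higher (exact permutation p = 0.496). It also turned with Taar4 left out of the total, where the Taar5+ mean was 2.94 points higher (exact permutation p = 0.559). With the Taar7 copies left out of the total, the difference was -12.0 points (exact permutation p = 0.158).

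The summed Taar8 TPM was divided unevenly among the copies, in a like order in most libraries. In Taar5+ libraries Taar8b held 63.7% ± 11.8 (SD, n = 7) of it, from 46.6% in replicate 2 to 82.4% in replicate 6. Taar8c held 23.6% ± 9.07 and Taar8a 12.7% ± 4.68. The part of read assignment in this split was not tested. Of the 6 controls with any Taar8 TPM, 5 had Taar8b as the leading copy, with 55.9% to 89.7%. The exception was control replicate 9, where Taar8b was listed at 0 and Taar8a made up 81.3% of only 1.27 TPM. The difference, Taar5+ minus control, was -1.94 percentage points for Taar8b (exact permutation p = 0.919), -6.91 for Taar8a (exact permutation p = 0.839) and 8.85 for Taar8c (exact permutation p = 0.0589, adjusted p = 0.294 over 5 shares). Without control replicate 9, the Taar8a share was 5.43 points higher in Taar5+ libraries (exact permutation p = 0.215), and the difference for Taar8b was -15.1 points (exact permutation p = 0.0669). The -1.94 points for Taar8b changed sign when Taar5+ replicate 2 or any 1 of control replicates 3 to 6 was left out alone.

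**Figure D4:**
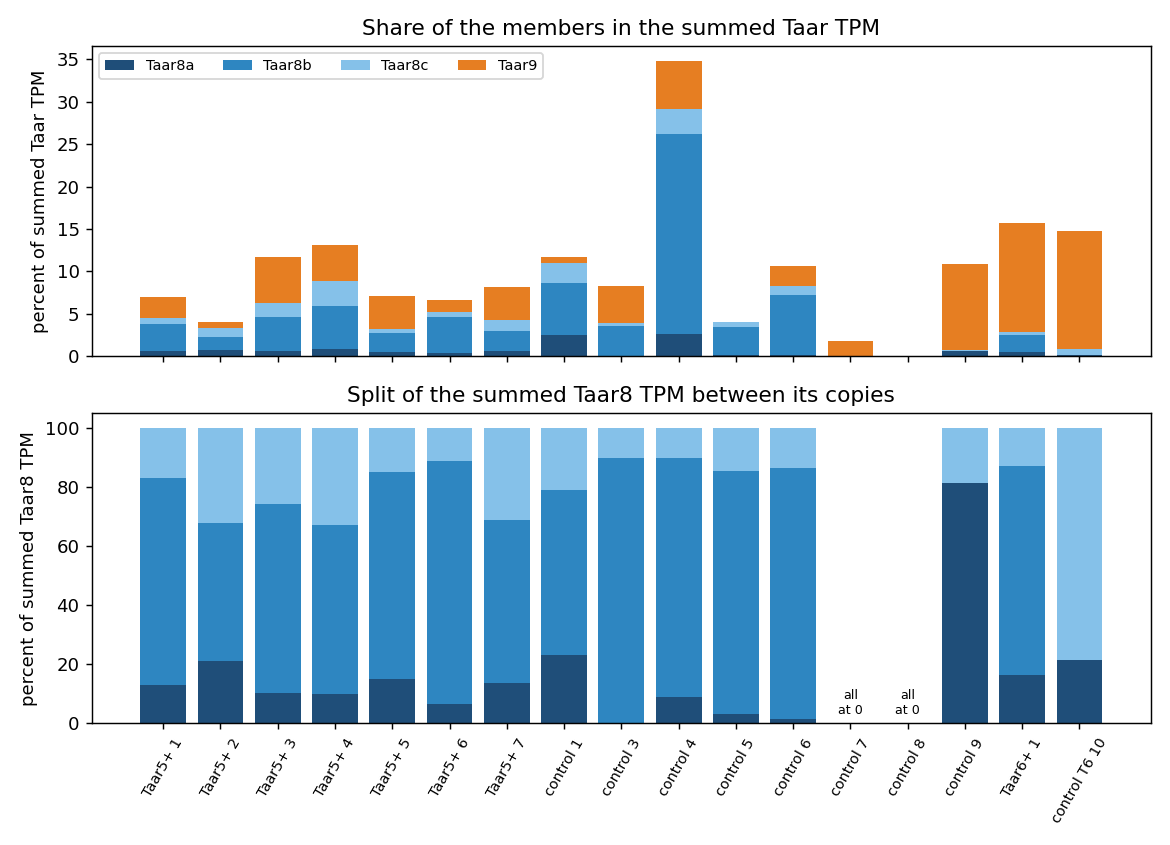
Upper panel, percent of the summed Taar TPM taken by each member (stacked bars) in each library used. Lower panel, percent of the summed Taar8 TPM taken by each copy, with libraries whose copies are all listed at 0 marked. Control replicate 4 stands out in the upper panel at 34.8%, and Taar8b takes the largest part in all 7 Taar5+ libraries in the lower one.

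Taar9 took 36.5% ± 13.7 (SD, n = 7) of the summed TPM of the 4 members in Taar5+ libraries, from 17.9% in replicate 2 to 54.4% in replicate 5. In controls this share ran from 0% in replicate 5 through a median of 22.3% to 100% in replicate 7, where Taar9 was the only member above 0, and replicate 8 had none. The difference, Taar5+ minus control, was -4.98 percentage points (exact permutation p = 0.756, n = 7 and 7). The sign turned without control replicate 7 (4.78 points higher, exact permutation p = 0.760) or replicate 9 (3.59 points higher, exact permutation p = 0.843).

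Over the 7 Taar5+ libraries, 6 correlations between members were computed. That of Taar8a with Taar8c passed the adjustment (Pearson's r = 0.98, exact permutation p = 0.000397, adjusted p = 0.00238; Spearman's rho = 0.96, exact permutation p = 0.00278, adjusted p = 0.0167). Without replicates 5 and 6, the libraries farthest from the median of Taar8a, r was 0.96. These copies differ at the fewest bases, and 49.4% of the 50-base words of each occur in the other. Taar8b and Taar8c share more such words, 55.0%, and had r = 0.81 (adjusted p = 0.0857, exact permutation test). Taar8a and Taar8b share 33.3% and had r = 0.75 (adjusted p = 0.0857, exact permutation test). The part of shared reads in these correlations was not tested. The other 5 pairs had r from 0.59 to 0.81 and an adjusted p from 0.0857 to 0.151 (exact permutation tests). The number of pairs that passed was 4 without Taar5+ replicate 2 and 4 without replicate 6. Taken as shares of the Taar total, in which the size of that total does not enter, 0 of 6 pairs passed, and 1 had an unadjusted exact permutation p under 0.05 (Taar8a with Taar8c, r = 0.86, p = 0.0129, adjusted p = 0.0774).

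The Taar6 line has 1 library per group, so its values are given with no test. Taar9 was at 1277 TPM in Taar6+ and 18.6 TPM in its control. This is 7.58 times the mean of the Taar5+ libraries and 4.12 times the highest of them, and it made Taar9 the Taar gene with the second highest level in the Taar6+ library, after Taar6. Taar8a was at 46.4 TPM, Taar8b at 199 TPM and Taar8c at 36.2 TPM, each within the range of the Taar5+ libraries. Their sum of 281 TPM was 0.980 times the mean of those libraries. In the control library Taar8a was at 0.233 TPM and Taar8c at 0.859 TPM, and Taar8b was listed at 0.

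All 4 members were higher in Taar6+ than in its control by at least 2 in log2(TPM + 1), against 1.19% of the 15189 genes compared. The share of the members in the summed Taar TPM was 15.7% in Taar6+ and 14.7% in its control, above the 13.2% of the highest Taar5+ library. Taar9 made up 81.9% of the members' TPM in Taar6+, where the highest Taar5+ library had 54.4%, and 94.5% in its control. The ratio of Taar9 to the summed Taar8 copies was 4.53 in Taar6+ and 0.218 to 1.19 in Taar5+ libraries. Controls reached higher ratios over low Taar8 totals. The ratio was 17.1 in the Taar6-line control, over 1.09 TPM. In Taar5-line controls with any Taar8 TPM it ran from 0 in replicate 5 to 13.0 in replicate 9, over 1.27 TPM in the latter. Line, reporter and age cannot be told apart here. In the Taar6 line Gapdh, used in every cell, was at 1.43 TPM in Taar6+ and 6.06 TPM in its control, against 436 to 1222 TPM in the Taar5 line, and Ppia was listed at 0 in both. Ratios between the lines are therefore given as values only.

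**Figure D5:**
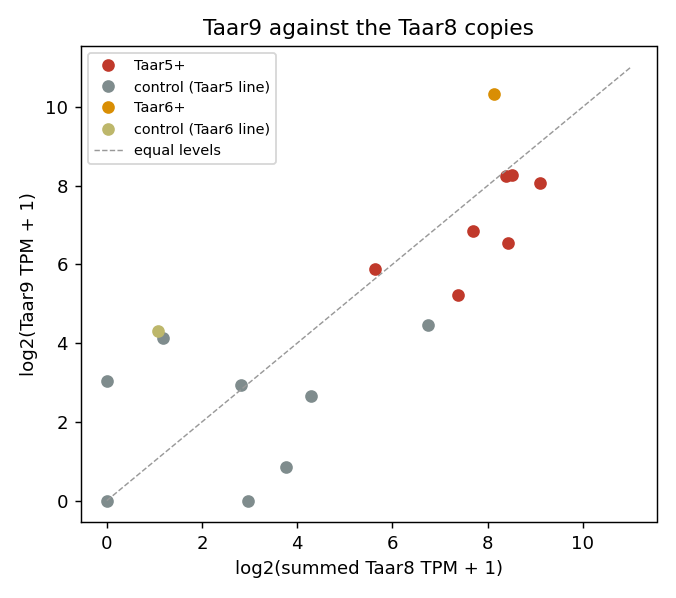
Taar9 (y axis) against the summed Taar8 copies (x axis), both in log2(TPM + 1), in every library used (points, by group), with a dashed line at equal levels. The Taar6+ library lies above the line at a ratio of 4.53, and the Taar5+ libraries lie below or close to it, between 0.218 and 1.19. Higher ratios, at low Taar8 levels, were those of the Taar6-line control (17.1) and control replicate 9 of the Taar5 line (13.0).

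Likeness to the members was measured over 17 libraries as the root mean square difference of log2(TPM + 1), each gene centred on its own mean, where a smaller value means a more similar profile. For Taar9 the nearest of 12498 genes outside the members were Taar5 (1.52), the neuronal transcription factor Tbr1 (1.54), Taar7f (1.60), Taar7e (1.63) and Taar7d (1.71), and the median over all genes was 3.10. For the summed Taar8 copies they were Fam19a4, which encodes a secreted chemokine-like protein (1.77), Taar7e (1.92), Tbr1 (1.93), the sodium pump regulator Fxyd2 (1.95) and Taar3 (1.99), with a median of 3.41. The value between Taar9 and the summed Taar8 copies was 1.99. These likenesses are descriptions, since all profiles share the contrast between reporter-positive and control libraries.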

How the data were processed

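RNA-seq was measured in 18 libraries of sorted MOE cells. The authors prepared them by the Smart-seq2 protocol, a full-length cDNA method without molecular identifiers. Per the submitters' processing notes, reads were processed with Trimmomatic 0.36, HISAT2 2.1.0 and Cufflinks 2.2.1 on mm10 (GRCm38). The deposited values are TPM, which sum to 1000000 per library. The annotation, the step to TPM, and the handling of strand and of multi-mapping reads are not given in the sources used here. TPM keep no depth, so no counting error was available.

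The 23847 rows were reduced to 23359 symbols by summing 488 repeats. Genes that reached 1 TPM in 7 or more of the 16 Taar5-line libraries were tested with limma 3.58.1 (trend, R 4.3.3) on log2(TPM + 1), and p-values were adjusted by the Benjamini-Hochberg method (threshold 0.05). Shares, order and correlations were compared with exact permutation tests (Python 3.11.15, numpy 2.4.6). The column of control replicate 2 exceeded 1000000 by 115 TPM, the sum of its Taar rows, which repeat those of replicate 1. These were left out. Replicate numbers were not used to pair the samples. The members, gene lists and tests were chosen with earlier results of these data known. The genes named were the 4 members, the other Taar genes with the highest or lowest values, the 6 signalling genes and the 5 genes nearest in profile.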

Additional observations from a re-analysis of the deposited data

Results flagged for a closer look

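Within each group, each measure was searched for an extreme library by Dixon's test at the 95% level. Of 20 groups of values (5 levels and 5 shares in 2 groups), 6 held such a library. All 6 were controls, and 5 of them were control replicate 4. The test's rate of about 1 in 20 by chance holds for independent values that follow a normal distribution. The groups here overlap, since the summed level and the shares are made from the levels of the same genes. Raw TPM and percentages were used, so the count of 6 cannot be compared with chance.

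In control replicate 4, Taar8a was at 9.36 TPM with the next control at 2.90, Taar8b at 86.4 TPM with the next at 15.7, and Taar8c at 10.9 TPM with the next at 2.66. The summed Taar8 copies were at 106.7 TPM, with the next control at 18.5, and the 4 members made up 34.8% of the summed Taar TPM, with the next at 11.6%. Its Taar9 level, 20.9 TPM, was the highest control value but did not stand apart by this test. This library also had the highest OR total of the controls, 20251 TPM, and its part in the Taar8 values was not tested.

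In control replicate 9, Taar8a made up 81.3% of the summed Taar8 TPM, with the next control at 23.0%, over a Taar8 total of 1.27 TPM.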

How the results depend on the processing

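The direction of all 4 members and of the summed Taar8 copies was the same under each of 27 alternatives. Adjusted p-values here are from limma. Taar8a and Taar8c passed the threshold in 26 of 27, Taar9 in 26, the summed copies in 25 and Taar8b in 20. With a pseudocount of 0.1, the difference was 6.16 for Taar8b (adjusted p = 0.156), 5.78 for Taar9 (0.0788) and 6.14 for the summed copies (0.1003), and Taar8b without the filter was at 4.84 (0.0680). Leaving out 1 library at a time gave 4.50 to 5.43 for Taar8b. The cause was not tested. The number of other Taar genes called was 10 with array weights, against 6. Genes called in all numbered 21, but 12 with the replicate block, 66 without Taar5+ replicate 5, 109 with quantile normalization, 148 without control replicate 2, 337 without both libraries and 1410 with array weights.

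Replicate numbers are shared between groups. Same-numbered samples deviated together (correlation over 0.1) in 5 of 7 pairs, with 0.025 and -0.006 for numbers 2 and 6. Of the 7 Taar5+ libraries, 3 correlated best with their own number. These values do not settle whether the numbers mark pairs. The numbers were not taken as pairing, and the calls of the Taar8 copies depend on that choice. With the replicate block, the difference was 3.83 for Taar8a (adjusted p = 0.117), 4.21 for Taar8b (0.127), 4.23 for Taar8c (0.122), 4.53 for the summed copies (0.128) and 4.99 for Taar9 (0.00518), and the difference in share was 6.69 points for Taar9 among the members and 3.56 for Taar8a among the copies.

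No share reached an adjusted p under 0.05 in the exact permutation tests under any alternative, the lowest being 0.108. The share of the members in the Taar total differed by 2.94 points with Taar4 and -12.0 with the Taar7 copies left out, and by -3.50 to 1.48 when leaving out 1 library. The latter range was -11.9 to 4.78 for Taar9 among the members, -10.8 to 5.43 for Taar8a and -15.1 to 2.88 for Taar8b among the copies. Pairs of members with different levels numbered 4 or 5 over all alternatives in Taar5+ libraries, against 5. Correlated pairs numbered 0 as shares and 1 to 4 when leaving out 1 library. Depth is unknown, so how far low control values are limited by it cannot be given.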
